A study of Mus musculus with 2 samples.

Results

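The transcripts described here are the spliced models whose names begin with BROAD and that have at least 3 exons in a pooled list deposited for mouse embryonic stem cells. They were chosen by name and exon number, and they number 2522 of the 7697 BROAD transcripts and of 110003 transcripts in all. Merging members of 1 strand with overlapping spans gave 619 loci.

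The cells were V6.5, a mouse embryonic stem cell line, cultured on irradiated mouse embryonic fibroblasts that serve as feeder cells. No genotype change, treatment or time point is given, and both libraries share the line and the feeder layer. One library held polyadenylated RNA and the other held RNA depleted of ribosomal RNA, with 1 sample each, and the strand of origin was kept by dUTP marking. The list names neither library and holds no read counts, so no member can be assigned to a library, the depth behind it is unknown, and RNA of the feeder cells cannot be told apart from RNA of the stem cells.

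Long noncoding RNAs are transcripts with little capacity to code for protein, and many of them are capped, spliced and polyadenylated like messenger RNAs. Active promoters in mammals often fire in both directions, so that a noncoding RNA starts close to the start of a coding gene and runs the opposite way, an arrangement called divergent transcription. Splicing joins exons at a donor site, at the 5′ end of an intron, and an acceptor site, at its 3′ end, and use of different sites gives several isoforms from 1 locus. In embryonic stem cells noncoding RNAs have been studied for roles in chromatin regulation and in keeping the pluripotent state.

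The list carries no gene names, and genes were named by matching runs of intron, exon and intron lengths to the GENCODE annotation. The promoters of 4 matched genes are shown first because they illustrate the contrast in CpG content between divergent genes and genes that stand apart from coding genes. Each window is 300 nt long, 250 before and 50 after the RefSeq start on build GRCm38.p6, is written 5′ to 3′ on the gene's strand, and has its CpG dinucleotides in capitals. Tug1, at chr11:3648765-3649064 on the minus strand, is a conserved noncoding RNA that starts beside Morc2a, which encodes a chromatin ATPase. A930024E05Rik, at chr5:122989104-122989403 on the plus strand, starts beside Kdm2b, whose product binds CpG-rich DNA and brings polycomb complexes to it. Platr3, at chr2:135646273-135646572 on the plus strand, and Platr14, at chr2:104559209-104559508 on the plus strand, belong to the pluripotency-associated transcripts, a group named for their link to the stem cell state.
Tug1: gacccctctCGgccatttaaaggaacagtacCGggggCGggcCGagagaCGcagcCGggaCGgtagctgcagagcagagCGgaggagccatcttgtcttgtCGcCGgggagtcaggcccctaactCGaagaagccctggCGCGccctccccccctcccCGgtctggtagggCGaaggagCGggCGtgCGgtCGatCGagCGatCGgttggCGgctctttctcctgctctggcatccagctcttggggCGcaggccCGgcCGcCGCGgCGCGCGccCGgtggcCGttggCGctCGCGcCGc
A930024E05Rik: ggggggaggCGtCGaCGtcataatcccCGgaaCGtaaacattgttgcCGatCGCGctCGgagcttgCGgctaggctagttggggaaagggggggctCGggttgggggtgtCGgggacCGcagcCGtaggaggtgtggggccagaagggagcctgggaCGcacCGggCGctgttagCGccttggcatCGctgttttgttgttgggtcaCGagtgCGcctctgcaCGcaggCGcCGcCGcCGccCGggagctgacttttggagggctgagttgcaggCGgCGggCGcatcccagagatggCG
Platr3: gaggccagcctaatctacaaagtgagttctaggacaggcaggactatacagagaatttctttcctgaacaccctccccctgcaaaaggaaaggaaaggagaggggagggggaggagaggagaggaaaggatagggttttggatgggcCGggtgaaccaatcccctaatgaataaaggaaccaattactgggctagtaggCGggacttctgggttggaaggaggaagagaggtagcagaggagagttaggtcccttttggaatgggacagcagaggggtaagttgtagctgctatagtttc
Platr14: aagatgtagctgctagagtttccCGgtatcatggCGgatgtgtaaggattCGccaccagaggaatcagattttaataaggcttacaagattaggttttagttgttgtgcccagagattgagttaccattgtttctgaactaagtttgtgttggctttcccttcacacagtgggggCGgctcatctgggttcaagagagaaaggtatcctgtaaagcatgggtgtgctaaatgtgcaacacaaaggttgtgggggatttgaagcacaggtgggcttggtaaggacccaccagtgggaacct
The Tug1 window held 37 CpG and the A930024E05Rik window 31. The Platr3 window held 2 CpG and the Platr14 window 4. The RefSeq start of Tug1 lay 377 bp from the nearest Morc2a start, and that of A930024E05Rik lay 48 bp from a Kdm2b start. RefSeq and GENCODE place starts differently, and the RefSeq start shown lies 859 bp downstream of the outermost GENCODE start for Tug1, 2384 bp upstream for Platr3 and 296 bp downstream for Platr14.

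Members were mostly short chains, with a long tail of transcripts of many exons. The median was 4 exons (quartiles 3 and 6), and the longest chain had 15. Of the 2522 members, 859 (34.1%) had 3 exons, 430 had 4, 317 had 5, 316 had 6 and 272 had 7. Transcripts of 5 or more exons made up 48.9% (95% interval 46.9 to 50.8). Counted by locus the chains were shorter. The longest chain had 3 exons at 415 loci (67.0%) and 4 exons at 130 loci.

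The summed exon length is the spliced length of the assembled model, which can be incomplete. Its median was 1077 nt in members (quartiles 661.25 and 2220.75, 95% interval of the median 1042 to 1113). It was 210 nt in BROAD transcripts of 2 exons, 743.5 nt in spliced WHITEHEAD transcripts and 925 nt in U transcripts with at least 3 exons. With 1 member kept per locus, the one with the longest summed exons, the median of members was 709 nt (quartiles 410.5 and 1331.5). More exons make longer sums, so part of the gap to the 2-exon transcripts is fixed by the choice of members. Lengths of at least 1000 nt were found in 53.8% of members and in 9.12% of BROAD transcripts of 2 exons. Lengths under 200 nt, the usual lower bound for calling an RNA long, were found in 2.06% of members and in 48.0% of BROAD transcripts of 2 exons. Intervals here and throughout are Wilson 95% intervals for shares and order-statistic 95% intervals for medians. They cover counting error only, members of 1 locus share exons, and no difference between the groups of names was tested.

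Internal exons were close in size to those under the name U. The 1188 distinct internal exons had a median of 126 nt (quartiles 84 and 170), beside 128 nt (quartiles 88 and 188) for the 15306 internal exons of U transcripts with at least 3 exons. Exons under 50 nt made up 4.88% of members' internal exons and exons over 300 nt made up 8.08%. An internal exon whose length is a multiple of 3 leaves a reading frame unshifted when it is skipped. This held for 34.8% of members' internal exons (32.2 to 37.6) and for 35.9% of those of WHITEHEAD transcripts.

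First exons of members had a median of 134 nt (quartiles 70.25 and 249.5), beside 133 nt in U transcripts. Last exons had a median of 251 nt (quartiles 112 and 576), beside 314 nt in U transcripts. In BROAD transcripts of 2 exons the first exon had a median of 83 nt and the last a median of 91 nt. The median over members thus matched that of U transcripts within 2 nt for first and internal exons, and last exons were shorter. The ends of assembled transcripts can be truncated, which affects first and last exons.

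The 2188 distinct introns of members had a median of 1355 bp (quartiles 512.75 and 4202.75), from 69 to 430110 bp. First introns had a median of 1371 bp (95% interval 1212 to 1571) and later introns a median of 1336 bp (1188 to 1508), and the intervals overlapped. Introns of U transcripts had a median of 1561 bp (1524 to 1605). Introns over 50000 bp were few, with 20 in members (0.914%), against 3.47% of introns in U transcripts with at least 3 exons. The share was near that of members in BROAD transcripts of 2 exons (0.967%) and in spliced WHITEHEAD transcripts (1.08%). The span of a member locus had a median of 6288 bp (quartiles 3042 and 13472), against 1795 bp for loci of 2-exon BROAD transcripts and 10049 bp for loci of U transcripts with at least 3 exons.

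**Figure D1:**
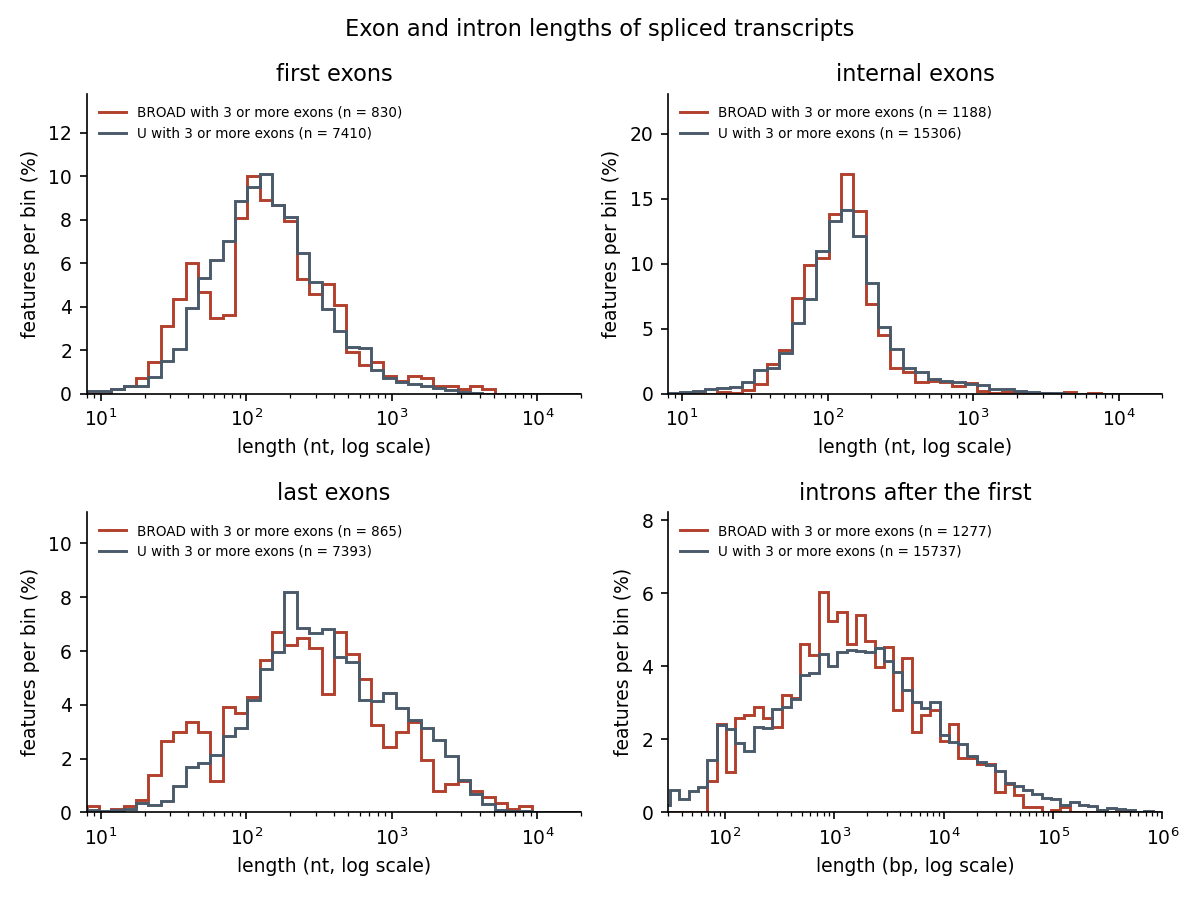
Lengths of distinct first, internal and last exons (nt) and of introns after the first (bp) on log axes, as the percent of features per bin, for BROAD and U transcripts with 3 or more exons. The internal exons of both have a single peak near their medians of 126 nt and 128 nt, and the first and last exons of BROAD transcripts have an extra shoulder of exons under 60 nt.

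Isoforms were spread very unevenly over loci. A single member was found at 356 loci, 2 members at 137 loci, 3 to 9 members at 105 loci and 10 or more at 21 loci. The 14 loci with 20 or more members held 1302 members (51.6%), and the 4 largest held 941 (37.3%). More than 1 member was found at 263 of 619 loci (42.5%, 38.7 to 46.4), beside a background of 16% of all loci in the list. The share was 10.8% for loci of 2-exon BROAD transcripts, 29.5% for WHITEHEAD loci and 23.3% for U loci with at least 3 exons. All the members together held 2362 distinct intron chains, a chain being the ordered set of introns of a transcript. Only 136 chains were held by more than 1 member, and these covered 296 members that differed in their ends alone.

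Firre, an X-linked noncoding RNA known for binding nuclear matrix proteins and for shaping chromatin across chromosomes, had the most isoforms. Its locus at mm9 chrX:47908855-47988487 on the minus strand held 410 members with 302 intron chains, built from 58 introns and 34 internal exons. The members of the Firre locus had up to 11 exons, 11 different 5′ ends and 35 different 3′ ends, and 133 of them were matched to the annotated gene. Their scores had a median of 40 and reached 245. Among the 4 largest loci, Firre alone had members that shared a chain. Without it the median summed exon length over the other members was 1132.5 nt.

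Pvt1, a noncoding gene that lies next to the Myc oncogene, came next, with 214 members at mm9 chr15:61863867-62083958 on the plus strand. Each of the 214 had a chain of its own, drawn from 24 introns and 11 internal exons. They had up to 10 exons and 7 different 5′ ends, and 152 of them were matched to the annotated Pvt1. A Pvt1 intron of 134708 bp was carried by 18 members, and each of the other 8 introns over 100000 bp was found in 2 members or fewer.

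A locus at mm9 chr13:98252637-98285625 on the plus strand matched no gene and held 180 members, each with its own chain. It had the chain of 15 exons, the longest summed exon length, 16835 nt, and 22 introns. Its scores had a median of 1285.5. After it, the longest summed exon lengths were 8446 nt at 9230114K14Rik, 8422 nt at 1700020I14Rik, 8103 nt at an unnamed locus on chromosome 2 and 6489 nt at Firre. On its strand 590 WHITEHEAD transcripts overlapped the chromosome 13 locus. Gm19705, an intergenic noncoding gene at chr1:138566251-138587379, had 137 members, of which 14 were matched to the annotated gene, and 125 WHITEHEAD transcripts overlapped its locus.

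The next 4 loci were smaller. Btbd19, a coding gene on chromosome 4 whose product has a BTB domain, had 65 members with 65 chains from 14 introns. An unnamed locus on chromosome 11 had 59 members with 35 chains. 5530601H04Rik, a noncoding gene on the X chromosome divergent from Pbdc1, had 48 members with 48 chains from 13 introns. An unnamed locus on chromosome 18 had 42 members with 42 chains from 11 introns. In all 8 of these loci the number of chains was over 3 times the number of introns, so the isoforms were different combinations of a small set of introns. Whether each combination existed as an RNA molecule was not tested.

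**Figure D2:**
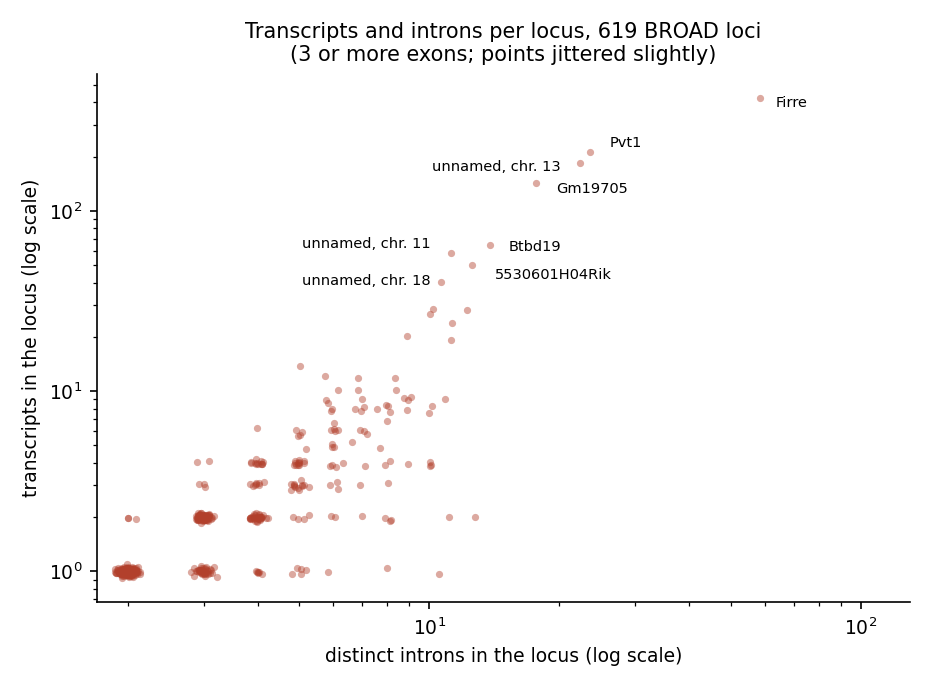
Number of members against number of distinct introns for the 619 loci, both on log axes, each point a locus. Firre stands at the top with 410 members and 58 introns, above Pvt1 with 214 members and 24 introns, and most loci sit at 1 or 2 members.

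The 263 loci with more than 1 member differed in several ways. A donor site joined to more than 1 acceptor was found at 172 loci (65.4%, 59.5 to 70.9), and an acceptor joined to more than 1 donor at 163 loci (62.0%, 56.0 to 67.6). Skipping of a whole internal exon, meaning an intron that spans exactly an exon and its flanking introns in the same locus, was found at 55 loci (20.9%, 16.4 to 26.2). More than 1 distinct 5′ end was found at 110 loci (41.8%) and more than 1 distinct 3′ end at 115 loci (43.7%). These classes overlap, since a skipped exon also joins a donor to a new acceptor.

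The strands were used about equally, with 325 of 619 loci on the plus strand (52.5%, 48.6 to 56.4). Of the transcripts, 1233 (48.9%) were on the plus strand, and the large Firre locus lies on the minus strand. Chromosome 11 had the most loci, 52. The X chromosome had 33 loci (5.33%), against 4.34% of all loci in the list, but 530 members, most of them from Firre. No member lay on the Y chromosome, the mitochondrial genome or unplaced sequence, where 2.71% of all loci in the list lay.

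Transcripts of other names overlapped most member loci on the same strand. Transcripts named U overlapped 437 loci (70.6%), against 38.7% of loci of 2-exon BROAD transcripts, and this was near the background of 69.8% of loci of all names other than U. WHITEHEAD transcripts overlapped 297 member loci (48.0%), against 10.2% of 2-exon loci, beside a background of 1.08% of loci of all other names. FT transcripts overlapped 216 member loci (34.9%), against 15.0% of 2-exon loci, beside a background of 11.5%. BROAD transcripts of 2 exons overlapped 199 member loci (32.1%). The remaining 138 member loci (22.3%) were overlapped by no U, FT or WHITEHEAD transcript, against 57.3% of 2-exon loci, beside a background of 54.4% of loci of all BROAD names. Spans differ between these groups, and the part of span in these shares was not tested. Introns gave a stricter comparison, since both ends must agree to the base. Of the 2188 introns, 1119 (51.1%, 49.0 to 53.2) also occurred under another prefix, against 18.1% of the introns of 2-exon BROAD transcripts. The share was 48.3% for introns of spliced WHITEHEAD transcripts and 32.1% for those of U transcripts with at least 3 exons. Each group was compared with the prefixes other than its own. With the strand of members swapped, 3 introns (0.137%) did. By prefix, 792 (36.2%) occurred in U transcripts, 750 (34.3%) in WHITEHEAD transcripts and 301 (13.8%) in FT transcripts. What the prefixes stand for, and whether they hold independent data, is not known from the labels or the file header.

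The share that recurred was lower among long introns. The share under another prefix was 59.1% for 66 introns under 100 bp, 53.6% for 840 introns of 100 to 1000 bp and 51.9% for 1023 introns of 1000 to 10000 bp. It was 38.9% for 239 introns of 10000 to 50000 bp and 30% for 20 introns above that, where 6 recurred. The interval for the last class, 14.5 to 51.9, overlapped those of all classes.

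Neighbours on the opposite strand were counted in 3 arrangements over all transcripts of the list. A head-to-head partner, whose 5′ end faces away within 2000 bp, was present at 45 member loci (7.27%, 5.48 to 9.59), beside a background of 5.16% of all loci. The share was 4.08% for loci of 2-exon BROAD transcripts, 5.34% for WHITEHEAD loci and 5.61% for U loci with at least 3 exons. A tail-to-tail partner, with 3′ ends facing within 2000 bp, was present at 27 member loci (4.36%, 3.01 to 6.27), beside a background of 6.15%. The interval of the head-to-head share lay just above its background, and that of the tail-to-tail share included its own.

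Overlap with a locus of the opposite strand was the arrangement found most, at 172 member loci (27.8%, 24.4 to 31.4), beside a background of 8.78% of all loci. It was 13.1% for loci of 2-exon BROAD transcripts, 18.5% for WHITEHEAD loci and 26.7% for U loci with at least 3 exons. Spans differ between these groups, so loci of like span were also set side by side. Among loci spanning 2000 to 10000 bp, 72 of 329 member loci (21.9%, 17.8 to 26.7) were overlapped, against 13.7% of 2-exon BROAD loci, 17.8% of WHITEHEAD loci, 15.5% of U loci and 12.6% of all loci of that span. Exon overlapped exon at 76 of the 172 loci, and 55 were overlapped by more than 1 opposite locus, with 10 at most.

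The head-to-head distance had a median of 866 bp (quartiles 228 and 1352) and was 200 bp or less at 8 loci. The tail-to-tail distance had a median of 845 bp. The head-to-head partner was named U alone at 28 of 45 loci and had more than 1 exon at 21. Distances run to the outermost 5′ end of the partner locus over all names. The nearest pair was 28 bp apart, between a 3-exon member at chr13:97521985-97544257 and a BROAD transcript of 2 exons. The next lay 35 bp from a U locus of up to 5 exons and was the 4-exon member at chr17:22847420-22876876. Zfp141, a zinc finger gene at chr7:49728501-49761123 on the minus strand, started 65 bp from a 4-exon member with no gene name at chr7:49761188-49764251, and both are member loci. The next nearest by this measure, at chr13:22111214-22118496, lay 72 bp from a U locus.

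With member loci alone, 10 loci formed 5 head-to-head pairs, and 3 of these 10 had no partner by the count over all names. The nearest such pair lay 54 bp apart, between the unnamed locus of 180 members on chromosome 13 and a locus of 20 members at chr13:98225758-98252583 on the minus strand. The next were the Zfp141 pair at 65 bp and a pair on chromosome 8, of 27 members and 1 member, at 99 bp.

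**Figure D3:**
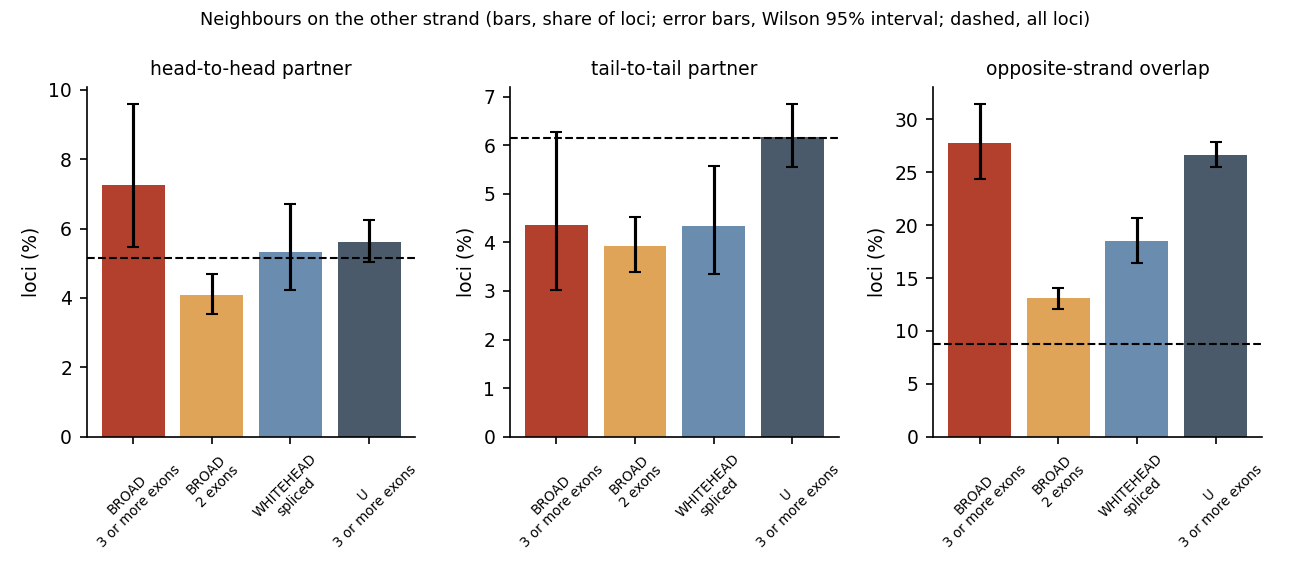
Share of loci (%) with a head-to-head partner, a tail-to-tail partner or an overlapping locus on the opposite strand, for member loci, loci of 2-exon BROAD transcripts, WHITEHEAD loci and U loci with at least 3 exons, with Wilson 95% intervals and a dashed line for all loci. Member loci stand at 7.27%, 4.36% and 27.8%, and the overlap share of BROAD loci with 3 or more exons is above that of the 2-exon loci at 13.1%.

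The score column holds a whole number per transcript, whose meaning neither the labels nor the file header give, and it was compared only within BROAD names. Members had a median score of 35 (quartiles 11 and 103.75; range 2 to 3269), against 2 (quartiles 2 and 4) for BROAD transcripts of 2 exons. With the longest member per locus the median was 12. The score went up with exon number, with medians of 9 at 3 exons, 26 at 4, 43 at 5, 56 at 6 and 78 at 7. It was 167 at 8 exons and 211 at 9. From 10 exons on, the median was at least 1253, and 124 of these 143 transcripts came from the unnamed locus on chromosome 13. The lowest score was 2 at 3 exons, 5 at 4, 7 at 5, 9 at 6, 11 at 7 and 32 at 8. It reached 228 at 11 exons but was 54 at 12 and 70 at 13, both in CN725425.

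Over the 2522 members Spearman's rho between exon number and score was 0.69, and over the 619 longest members per locus it was 0.48. Members of a locus share reads and exons, so these are descriptions. Within the 263 loci with several members the highest score was 1.67 times the lowest at the median (quartiles 1.17 and 3). The highest score was under 10 at 249 loci (40.2%), and 138 members in 9 loci had a score over 1000. Scores and recurrence went together. The share of introns also found under another prefix was 29.4% at loci whose longest member scored under 10, 50.2% at scores of 10 to under 50 and 73.6% at scores of 50 or more.

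**Figure D4:**
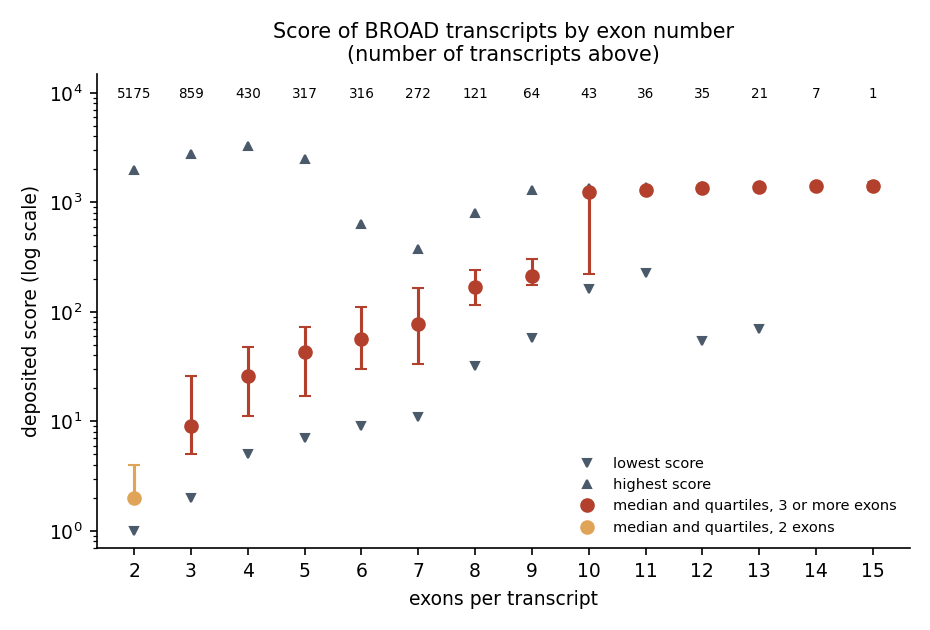
Deposited score of BROAD transcripts (log axis) by number of exons, with medians and quartiles as circles and bars, the lowest and highest score as triangles, and the number of transcripts at the top. The median was 2 at 2 exons, 9 at 3 exons and 78 at 7 exons.

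The 5 highest scores belonged to well-defined genes. Snhg6, a host gene of small nucleolar RNAs that is spliced like a messenger RNA, had 2 members of 4 exons with scores of 1407 and 3269. Ndufb1-ps had 2 members with scores of 1364 and 2737. 1110038B12Rik, a noncoding gene at chr17:35086375-35089413, had 1 member of 5 exons with a score of 2474. Apela, which encodes a secreted peptide that activates the apelin receptor and was first taken for a noncoding gene, had 1 member of 3 exons with a score of 2360. 1810058I24Rik had 2 members with scores of 1013 and 1612. Each of these 5 loci was also overlapped on its strand by transcripts named U and WHITEHEAD, which overlapped 70.6% and 48.0% of all member loci.

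Gene names could be given to 834 members (33.1%, 31.3 to 34.9) at 244 loci (39.4%), beside a background of 57.4% of all transcripts with at least 3 exons. With the strand swapped, 2 members (0.0793%) matched a gene. U transcripts with at least 3 exons matched at 61.9% and WHITEHEAD transcripts with at least 3 exons at 23.2%. Asking for 2 runs that agree on the gene left 16.6% of members matched. The 859 members of 3 exons hold a single run each and could not pass, so part of this fall is fixed by construction. The share of loci with a match was 21.7% where the longest member scored under 10, 43.1% from 10 to under 50 and 71.8% from 50.

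The 220 matched genes comprised 144 noncoding genes, 52 coding genes and 24 pseudogenes. By annotated type the noncoding genes were 66 lincRNAs, 40 antisense genes, 32 processed transcripts and 6 genes listed as sharing a bidirectional promoter. Of the 144, 117 were also matched by U transcripts. The long chains included coding genes. CN725425 had members of 12 and 13 exons with scores of 54 and 70, Rnf213, a giant ubiquitin ligase, had a member of 12 exons, and AI481877 had 1 member of 12 exons with a score of 195. The 9 members matched to Rnf213 lay in 7 separate loci along the gene, so a locus here is not always a whole gene.

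Of the gene lists, known noncoding genes alone had members among the matches, with 5 of 31 that could be matched, beside a background of 2.61% of all such noncoding genes. Besides Firre, Pvt1 and Platr3, these were Neat1, the scaffold RNA of nuclear paraspeckles, and Tug1. Neat1 had 1 member of 3 exons and 3092 nt with a score of 63. Tug1 had 1 member of 3 exons and 5094 nt with a score of 115, and its annotated start lay 86 bp from a Morc2a start. The lists of coding genes gave no match, with 0 of 26 for pluripotency, 0 of 23 for fibroblast feeder cells, 0 of 22 for lineage regulators and 0 of 25 for chromatin, beside a background of 0.277% of all such coding genes. No gene of these lists was the divergent coding partner of a matched noncoding gene. The labelled cell type could thus not be checked against coding markers, since members hold few coding genes.

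The Platr genes were looked up after the matches had been seen. Of 22 that could be matched, members matched 7, beside the background of 2.61% of noncoding genes, namely Platr3, Platr6, Platr11, Platr14, Platr20, Platr21 and Platr26. Platr14 had 4 members of up to 4 exons with scores of 851 to 1208. Platr3 had 4 members of up to 5 exons with scores of 139 to 276. Platr20 had 17 matched members of up to 7 exons with scores of 12 to 53. Platr26 had 1 member with a score of 128, Platr11 1 with 62 and Platr6 1 with 8. Platr21 had 5 members with scores of 8 to 95. The 7 genes thus ranged widely in score, with Platr14 highest.

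Divergence from a coding gene was read from the annotation. Of the 144 noncoding genes, 52 (36.1%, 28.7 to 44.2) had a start within 2000 bp of a coding start on the opposite strand and pointing away, beside a background of 15.4% of noncoding genes matched by any name. Of the 2897 noncoding genes matched by U transcripts and not by members, 425 were divergent (14.7%). Genes antisense to a coding gene were 27 of 144 (18.8%), against 31.1% of the U-only genes. Genes apart from any coding gene were 64 of 144 (44.4%), against 53.8%. The divergent shares above count a gene if any of its annotated starts qualifies. With a single start per gene, its outermost 5′ end, 20.1% of the 144 were divergent. The U-only and background shares were not computed in that way, so no comparison is available for it. The difference between the name groups was not tested, and how each group of transcripts had been filtered is not known.

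The divergent starts, as annotated, were close together, with a median distance of 152.5 bp (quartiles 75.5 and 317.5). It was 100 bp or less for 19 genes and 300 bp or less for 38. The nearest were 1110019D14Rik, 8 bp from 2610001J05Rik, and A930005H10Rik, 17 bp from Dph5, which makes diphthamide on elongation factor 2. Member starts can differ from annotated ones, and the members matched to 1110019D14Rik and 2610001J05Rik overlap at their 5′ ends. 4933439C10Rik lay 24 bp from Zkscan17, a zinc finger gene, and 1110046J04Rik lay 36 bp from Serpinb6a, a protease inhibitor. A930024E05Rik lay 48 bp from Kdm2b, and its member of 3 exons and 1407 nt had a score of 12. 6330418K02Rik lay 49 bp from BC037034, and A930037H05Rik lay 49 bp from Endov, an endonuclease that acts on inosine in RNA.

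1700086O06Rik lay 52 bp from Dele1, which relays mitochondrial stress, and Ccdc142os lay 53 bp from Mrpl53, a protein of the mitochondrial ribosome. Platr20 lay 55 bp from Gm12569. Ndufb1-ps lay 61 bp from Cpsf2, a subunit of the complex that cleaves the 3′ ends of messenger RNAs, and A330009N23Rik lay 67 bp from Grasp, a scaffold protein. Of the 12, 8 had a highest score under 50. Such scores were common among members, since the longest member per locus had a median of 12 and an upper quartile of 38 over the 619 loci. Among other divergent genes named above, 5530601H04Rik lay 147 bp from Pbdc1, and 9230114K14Rik, with a member of 8446 nt, lay 158 bp from Dhx15, an RNA helicase that takes apart the spliceosome.

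**Figure D5:**
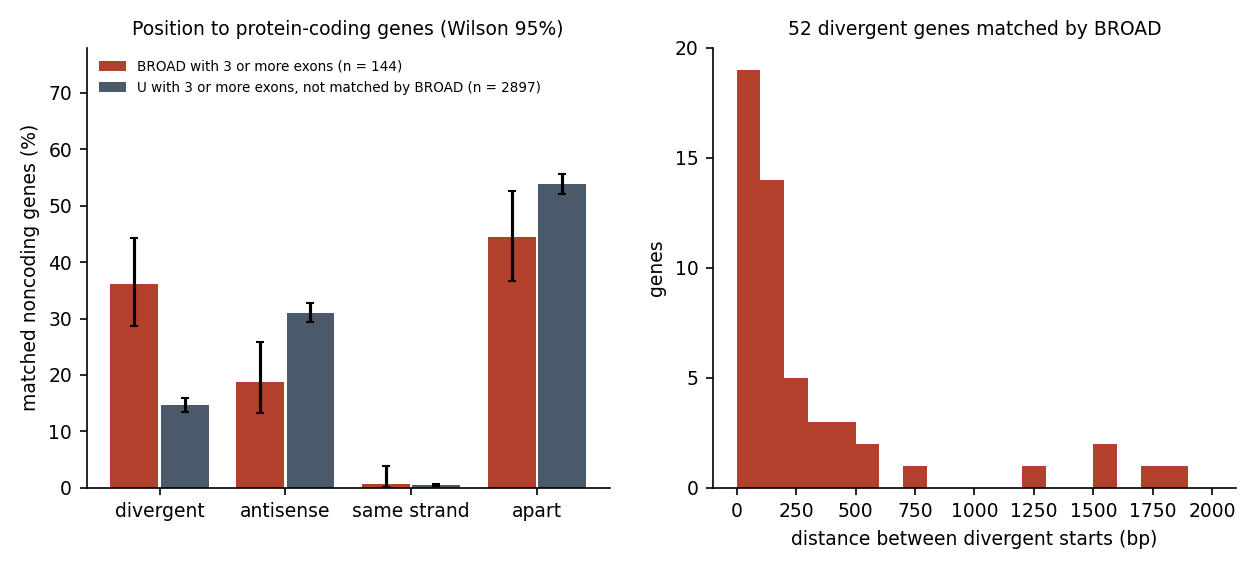
Left, share (%) of matched noncoding genes by annotated position to coding genes with Wilson 95% intervals, for the 144 genes matched by members and the 2897 matched by U transcripts only. A gene that qualified as divergent was counted in that class only. Right, distances between starts (bp, bins of 100 bp) for the 52 divergent genes, of which 19 lie within 100 bp.

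The promoters shown above stand for a difference in CpG content. RefSeq windows were at hand for 101 of the 144 noncoding genes and were classed by their own start. The 38 windows that lay divergent from a coding start had a median of 22 CpG (quartiles 16 and 37.75), and the 93 that did not had a median of 6 (quartiles 3 and 12). At least 15 CpG were found in 30 of 38 divergent windows (78.9%, 63.7 to 88.9) and in 16 of 93 others (17.2%, 10.9 to 26.1). Over all 3575 divergent windows of the table the median was also 22 and the share 72.3%, and over all 32851 windows the median was 7 and the share 34.6%. Over all 29276 windows that were not divergent the median was 6, and 8795 had at least 15 CpG, a share above the interval of the members' windows of that kind. The windows of the whole table were not limited to noncoding genes, and the part of gene kind in this difference was not tested. Of 8 windows for 6 Platr genes, 0 had at least 15 CpG, with a median of 4.5 and a highest count of 9.

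Short motifs were searched on both strands. GGGCGG, the core of the GC box, was in 26 of 38 divergent windows (68.4%), 28 of 93 others (30.1%) and 35.7% of all windows. CCAAT was in 47.4%, 44.1% and 37.4% in the same order. TATAAA was in 1 of 38 divergent windows (2.63%), 10.8% of the others and 13.6% of all windows. None of the 3 motifs contains another, and GGGCGG itself holds a CpG.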

How the data were processed

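Polyadenylated RNA and ribosome-depleted RNA of V6.5 cells were each made into 1 library with dUTP strand marking, per the labels' protocols. The submitters' processing notes name TopHat and mm9. The tool version and the assembly method are not given in the sources used here, nor is what the prefixes U, FT, BROAD and WHITEHEAD mean. The deposited list has 12 columns in BED format, and per the file headers it is an initial pool on mm9. Its score column holds whole numbers deposited by the authors.

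Blocks with gaps under 30 bp were to be joined, and no member had any. Loci are members of 1 strand with overlapping spans, and exons and introns were counted by distinct position. Partners were sought within 2000 bp among all transcripts. No test was run, as the list has no samples. Names come from GENCODE M21 (GRCm38): a run of intron, exon and intron lengths on the same chromosome and strand that belongs to 1 gene. Of 220 matched genes, 191 (86.8%) shared their offset between builds with another match within 500000 bp, and no coordinate was converted. Divergence uses starts of coding transcripts within 2000 bp. Promoters are from RefSeq (GRCm38.p6). Python 3.11.15, numpy 2.4.6, scipy 1.17.1 and matplotlib 3.10.9 were used. The counting of partners and the joining of blocks were checked on simulated transcripts. Matching was checked on annotated transcripts moved along the chromosome with lengths unchanged. That check does not cover assembly errors or changes between builds.

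The members and the gene lists (pluripotency, lineage regulators, fibroblast feeder cells, chromatin, known noncoding genes) were chosen with earlier results of these data known. Named loci are the 8 with most members, the 5 with most exons, longest span, highest score, longest summed exons and nearest head-to-head partner, matched list genes, and the 12 nearest divergent genes. Other genes named were chosen after their values were seen.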

Additional observations from a re-analysis of the deposited data

How the results depend on the processing

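Of 100 values over 14 results and 20 alternative settings, 70 stayed within the interval of the value reported (or, for counts, within 1.5 times). These include all values with gaps joined under 10 or 70 bp and with unplaced sequence left out. The shortest member intron was 69 bp and no member lay on unplaced sequence, so those settings could hardly move a value. Also included are all values with loci built from exon overlap, with each intron chain counted one time, and with intron ends allowed to differ by 5 bp. Members scoring above the median were 1245 at 178 loci, with a median score of 110, and their number and higher score follow from the choice. Their median summed length was 1963 nt and that of internal exons was 130 nt. Several members were found at 55.1% of loci, head-to-head partners at 11.8% and opposite-strand overlap at 38.2%. Introns occurred under other prefixes at 72.3%, and members were matched at 47.0%. The median summed exon length was 1132.5 nt without the Firre locus, 709 nt with 1 member per locus and 891 nt without the 4 largest loci, a setting chosen after seeing the data. The score was 12 with 1 member per locus and 20 without these 4. Counting each exon and intron of each member gave internal exons of 137 nt and introns of 2045 bp.

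Head-to-head and tail-to-tail partners were at 3.72% and 2.58% of loci within 1000 bp, and at 12.6% and 12.4% within 5000 bp. With BROAD partners only they were at 2.91% and 0.485%, with overlap at 6.46%, and with multi-exon partners only at 3.39% and 1.29%, with overlap at 14.5%. Overlap of exons was at 12.3%. Requiring 2 runs, which members of 3 exons cannot hold, matched 16.6% of members. Outermost 5′ ends made 20.1% of noncoding genes divergent. Some shifts are wholly or partly fixed by construction, through the partners admitted, the loss of 3-exon members, or the choice of members by score. Beyond that, the cause of these shifts was not tested. No paired analysis was possible because the list names no library and each kind of library has 1 sample.

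Depth is unknown, the pool was filtered in ways not given in the sources used here, and genes of fewer than 3 exons cannot be matched. Names describe annotated genes of another build, and splice-site sequences were not analysed here.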

Other observations

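Small shifts of splice sites were counted at both ends of introns, with no test. Among 386 pairs of acceptor sites joined to the same donor, 17 were 3 bp apart and 9 were 4 bp apart, of 43 under 20 bp. Among 360 pairs of donor sites joined to the same acceptor, 0 were 3 bp apart and 5 were 4 bp apart, of 31 under 20 bp. Tandem acceptors 3 bp apart are a known form of alternative splicing in mammals. The distances were chosen after the pairs had been seen.

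Short end exons were common in members. First exons under 60 nt were 182 of 830 (21.9%, 19.2 to 24.9), against 41.8% in BROAD transcripts of 2 exons, 28% in WHITEHEAD transcripts and 16.7% in U transcripts with at least 3 exons. Last exons under 60 nt were 128 of 865 (14.8%), against 40.4% in BROAD transcripts of 2 exons and 6.57% in U transcripts. The share in WHITEHEAD transcripts, 14.9%, was near that of members. The limit of 60 nt was set after the length distributions had been seen.

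Of 9 member introns over 100000 bp, 0 occurred under another prefix. The longest, 430110 bp at mm9 chr13:65907484-66337593, was in 2 members of a locus of 811034 bp whose 3 members had scores of 4 to 8 and which 93 U transcripts overlapped on the same strand. The next longest loci were a single member spanning 338682 bp on chromosome 12 with a score of 10, and Pvt1 at 220092 bp with 214 members and a median score of 217.5. Loci of 168723 bp and 166555 bp on chromosome 5 followed. The intron over 100000 bp in Pvt1 was in 18 members, and those of the chromosome 12 and chromosome 5 loci were each in 1.

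The Platr3 and Platr14 promoters share a longest run of 11 letters, TGTAGCTGCTA, noticed after the sequences were seen. The Platr14 window lies wholly inside the annotated gene by its GENCODE start, so the run lies within that annotated gene. On either strand it was in 12 of 32851 promoters (0.0365%), from 11 genes, and no other noncoding gene matched by members had it.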
